A study of Schmidtea mediterranea with 5 samples.

Results

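The comparison described here set planarians that had spent 8 days back in the dark, long after light had bleached them, against planarians at 1 and 2 days of the same return. Schmidtea mediterranea is a freshwater flatworm with a brown dorsal pigment. All groups were whole animals of the asexual clonal strain CIW4, raised on beef liver. The growth protocol gives 1 week without food before collection. Whether time without food was equal in all groups cannot be read from the texts. The comparison was carried by animals depigmented by 8 days of light and then kept in the dark for 8 days (the late group), and animals treated alike but kept in the dark for 1 day or 2 days (the early groups). Animals taken at the end of the 8 days of light, and control animals with no treatment held in the dark, placed the changed transcripts. The sample title calls the control animals WT (wild type). The comparison thus rested on 3 of the 5 libraries of the study. The treatment protocol attached to the samples speaks of RNA interference and amputation, which the titles do not mention, and it was not used for grouping.

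Planarian body colour comes from pigment cells that lie beneath the epidermis and hold porphyrin and ommochrome pigments. Porphyrins are intermediates of heme synthesis and absorb light strongly, and prolonged light is known to remove pigment cells. New pigment cells arise from neoblasts, the dividing stem cells that renew all planarian tissues, so that colour can come back in the dark. In RNA from whole animals, fewer cells of a type and less RNA per cell cannot be told apart.

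Equal amounts of 3 biological replicates were mixed into each library, which leaves 1 library per condition. The variation among animals was therefore not measured, and no p-value is given. The early groups are 2 time points, not replicates. The libraries held 48002809 reads at 8 days in the dark, against 42909193 reads at 1 day and 50045371 reads at 2 days. The light library had 38447289 reads and the dark control 44297819 reads. Levels are given in CPM, reads per 1000000 reads of the library. A single read equalled 0.020 to 0.026 CPM, depending on the library. Where no read was counted, a level under 0.060 to 0.078 CPM (3 reads) could go unseen. Differences are log2 ratios of CPM + 1, which is the deposited scale and understates the differences of low transcripts. The transcripts are contigs of an assembled transcriptome. The files pair their numbers with no gene, so no gene, pathway or cell type can be named, and the labelled tissue was not checked against markers. Contigs that share sequence may also share reads.

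Of 82843 transcripts, 21307 averaged at least 1 CPM across the libraries and were compared. A transcript was counted as changed where the mean of its log2 ratios to the 1-day and 2-day libraries was at least 2-fold and both ratios had the same sign. By this rule 60 transcripts differed. At 8 days 30 were higher than early in the dark (0.141% of those compared) and 30 were lower (0.141%). The median log2 ratio was 1.52 for the 30 higher and -1.37 for the 30 lower transcripts, values that the rule itself sets, against 0.03 over all compared transcripts. Transcripts at the edge of the rule differ little from each other: the last one counted as higher had a mean log2 ratio of 1.01, and the first one left out had 0.99. On the lower side these values were -1.01 and -0.97.

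Counting error was set beside the differences, on the same reads that chose the transcripts. For each transcript, the ratio of CPM at 8 days to that of the pooled early reads was given an exact conditional binomial 95% interval (Clopper-Pearson). This interval lay wholly beyond 2-fold for 29 of the 30 higher and 29 of the 30 lower transcripts, and beyond no difference for all 60. Since the same reads made the choice, these counts describe the 60 transcripts and are not separate support. The intervals cover counting error only. Reads carried no molecular identifiers, so they were treated as independent molecules. The ratios of CPM ran from 2.01- to 10.1-fold higher (median 3.25-fold) and from 2.05- to 7.64-fold lower (median 3.77-fold).

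**Figure D1:**
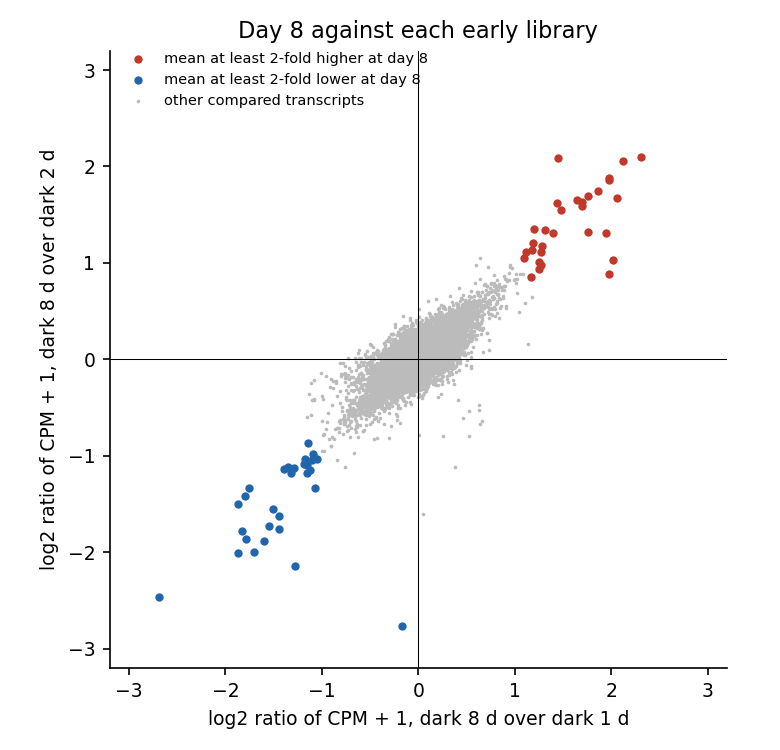
Log2 ratio of CPM + 1 of the 8-day dark-return library over the 1-day library (x axis) and over the 2-day library (y axis) for 21307 transcripts. The 30 higher transcripts (red) lie in the upper right and the 30 lower ones (blue) in the lower left; 1 blue point near the vertical axis is a transcript whose difference rests on the 2-day library.

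Most changed transcripts differed from both early libraries alike. Of the 30 higher transcripts, 26 were at least 2-fold above each of the early libraries, and of the 30 lower ones, 27 were at least 2-fold below each. The rule used the same ratios, so the choice largely sets these counts. Taken singly, the 1-day library gave 41 higher (0.192%) and 39 lower transcripts (0.183%), and the 2-day library 27 higher (0.127%) and 32 lower (0.150%). These ratios share the 8-day library. The early libraries stood close to each other: only 12 transcripts were at least 2-fold higher at 2 days than at 1 day (0.0563%), and 0 were lower (0%). Between the early libraries, the absolute log2 ratio of the changed transcripts had a median of 0.12 on the higher side and 0.17 on the lower side, against 0.08 over all compared.

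By mean log2 ratio of CPM + 1, SmedASXL_011484 stood first on the higher side. By the ratio of CPM itself, a transcript of lower level came first, at 3.58 CPM at 8 days, 10.1-fold above the pooled early reads (6.92 to 15.1). Its early levels were low and unlike, at 0.676 CPM (29 reads) after 1 day and 0.0799 CPM (4 reads) after 2 days. The pooled ratio and its interval therefore describe neither early time. SmedASXL_011484 stood at 300.4 CPM (14418 reads) after 8 days in the dark, against 60.0 CPM (2575 reads) after 1 day and 69.5 CPM (3476 reads) after 2 days. The ratio of CPM was 4.61-fold (95% counting interval 4.48 to 4.76) and the mean log2 ratio 2.20. The light library held 58.6 CPM, against 187 CPM in the dark control. The level at 8 days was thus the highest of the 5 libraries and 160.3% of the dark control, while light, 1 day and 2 days lay close together.

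SmedASXL_013664 came next by mean log2 ratio of CPM + 1 and followed the same course. It stood at 234 CPM after 8 days in the dark, against 52.8 CPM after 1 day and 55.4 CPM after 2 days, a 4.31-fold ratio (4.17 to 4.46) with a mean log2 ratio of 2.09. The light library held 49.0 CPM, against 160.3 CPM in the dark control, and the 8-day level was 146% of that control. The level of SmedASXL_013664 was 0.778 to 0.880 times that of SmedASXL_011484 in all 5 libraries, so the pair kept nearly 1 ratio throughout. A steady ratio was not particular to this pair. Another 2 of the higher transcripts stood at 288 and 279 CPM after 8 days, 78.4 and 81.7 CPM after 1 day, and 85.4 and 85.2 CPM after 2 days. In light these had 91.2 and 94.2 CPM, and in the control 261 and 276 CPM. Whether SmedASXL_011484 and SmedASXL_013664 share sequence was not tested.

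On the lower side SmedASXL_013874 stood first by mean log2 ratio of CPM + 1. By the ratio of CPM, 2 transcripts with means under 5 CPM lay further down, at 7.64-fold (4.04 to 16.3) and 6.46-fold lower (5.03 to 8.41). The 6.46-fold ratio rests on the 2-day library. That transcript stood at 1.40 CPM at 8 days, against 1.70 CPM after 1 day and 15.3 CPM after 2 days. SmedASXL_013874 stood at 11.5 CPM (554 reads) after 8 days in the dark, against 79.6 CPM (3417 reads) after 1 day and 68.4 CPM (3424 reads) after 2 days. The ratio of CPM was 6.38-fold lower (5.85 to 6.97) and the mean log2 ratio -2.58. The light library held 111 CPM, against 8.51 CPM in the dark control. Its level was high in light and in both early libraries and low in the control and at 8 days, with a wide gap between the sets.

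SmedASXL_006851 differed in how its 8-day level related to the control. It stood at 27.3 CPM after 8 days in the dark, against 102 CPM after 1 day and 113 CPM after 2 days, 3.95-fold lower (3.73 to 4.19), with a mean log2 ratio of -1.94. The light library held 93.9 CPM, against 58.0 CPM in the dark control. The 8-day level was therefore the lowest of the 5 libraries, at 47.1% of the control.

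**Figure D2:**
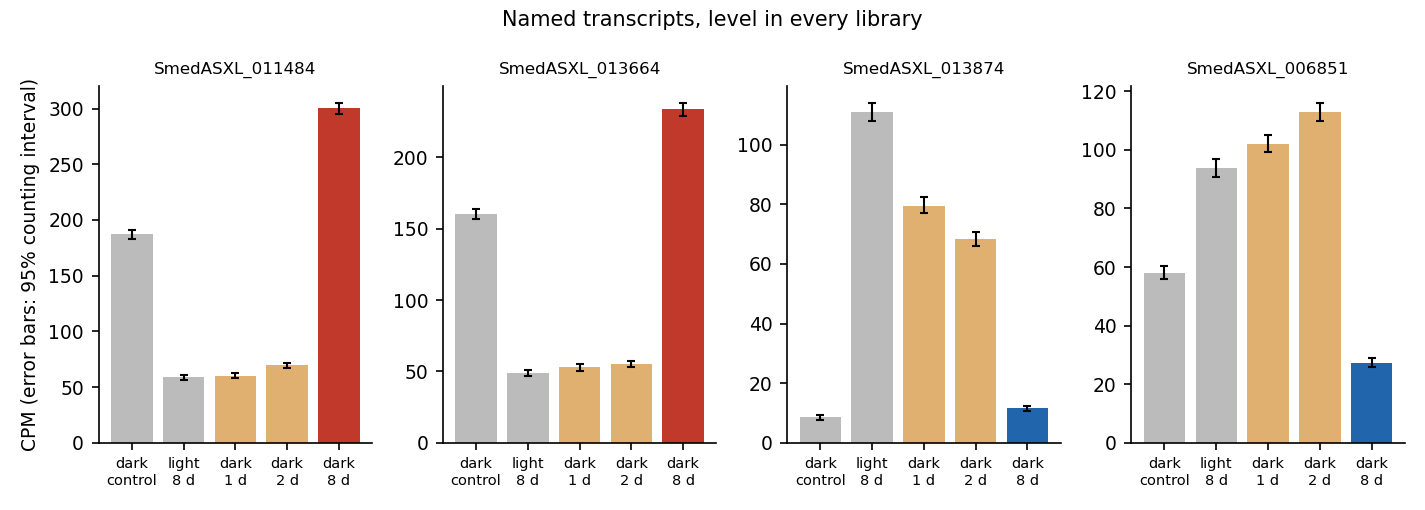
Level in CPM of the 4 named transcripts in each of the 5 libraries (dark control, 8 days of light, and 1, 2 and 8 days back in the dark), with exact 95% counting intervals as error bars. The 8-day bar is the tallest for SmedASXL_011484 and SmedASXL_013664 (300.4 and 234 CPM), and for SmedASXL_013874 it stands near the control bar (11.5 and 8.51 CPM).

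The light and control libraries took no part in the choice other than through the filter on the mean, and they placed the changed transcripts. Of the 30 transcripts higher at 8 days, 24 were lower in light than in the dark control by at least 2-fold, against 1.67% of all compared transcripts, and 3 were higher by that margin. Among the 30 that were lower at 8 days, 14 were at least 2-fold higher in light than in the control, against 0.643% of all, and 1 was at least 2-fold lower. By sign alone, light was below the control for 25 of the 30 higher transcripts (45.8% of all) and above it for 27 of the 30 lower ones (54.2% of all). The median log2 ratio of light to control was -1.49 for the higher and 0.96 for the lower transcripts, against 0.04 over all compared transcripts. With the filter set on the 3 dark-return libraries alone, chosen after seeing the data, the same 60 transcripts were counted among 21368, with the same 24 and 14.

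**Figure D3:**
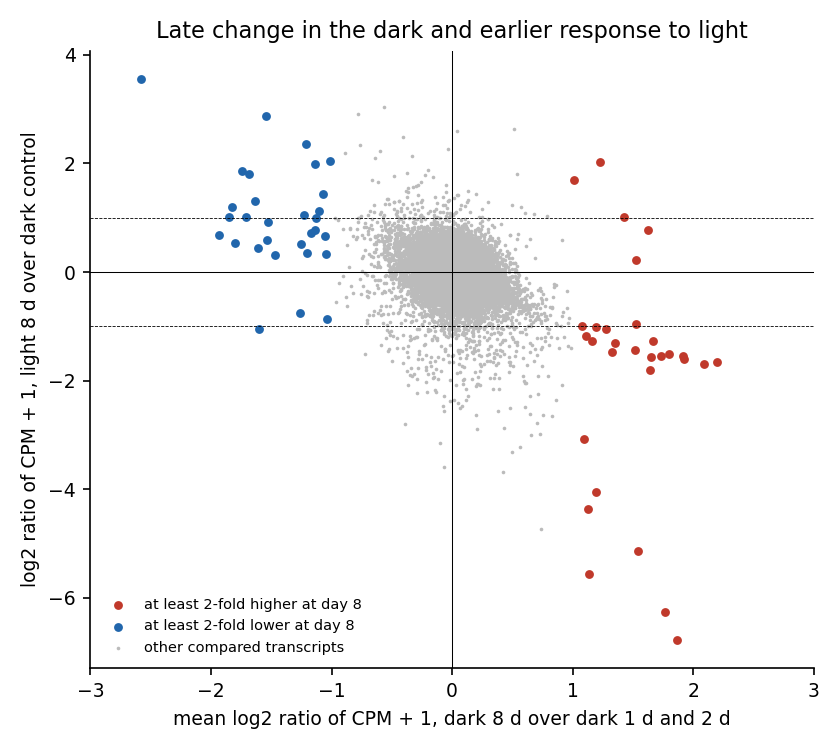
Mean log2 ratio of CPM + 1 of the 8-day library over the 1-day and 2-day libraries (x axis) against the log2 ratio of the light library over the dark control (y axis), 2 measures with no library in common, for 21307 transcripts; dashed lines mark 2-fold. Of the 30 red points 24 lie at or below the lower dashed line, and of the 30 blue points 14 lie at or above the upper one.

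Smaller changes leaned the same way, less so by sign on the lower side. At a threshold of 1.5-fold, 174 transcripts were higher at 8 days (0.817%) and 137 were lower (0.643%). Among the 144 that were 1.5- to 2-fold higher, 137 were lower in light than in the control (95.1%, against 45.8% of all compared). By at least 2-fold 45 of the 144 were lower (31.2%, against 1.67% of all). The median log2 ratio of light to control over the 144 was -0.78. Among the 107 that were 1.5- to 2-fold lower, 72 were higher in light (67.3%, against 54.2% of all compared). By at least 2-fold 15 of the 107 were higher (14.0%, against 0.643% of all). The median over the 107 was 0.41. By sign, the excess over all compared transcripts was thus smaller on the lower side than on the higher side. Medians over the 174 transcripts were 13.1 CPM after 8 days, against 6.44 CPM after 1 day and 7.31 CPM after 2 days, and 5.77 CPM in light, against 13.5 CPM in the control. Over the 137 they were 11.3 CPM after 8 days, against 24.1 and 23.6 CPM after 1 and 2 days, and 19.1 CPM in light, against 14.2 CPM in the control.

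Across all compared transcripts the share lower in light differed from bin to bin of the late change. The bins go by the mean log2 ratio alone, without the need for the same sign against both early libraries. The share was 83.3% in the 30 transcripts at least 2-fold higher at 8 days, 95.1% in those 1.5- to 2-fold higher and 81.4% in the 875 that were 1.25- to 1.5-fold higher. Among the 10976 transcripts up to 1.25-fold higher it was 48.2%, and among the 8482 up to 1.25-fold lower it was 39.4%. It was 30.8% among the 662 that were 1.25- to 1.5-fold lower and 32.4% among the 108 that were 1.5- to 2-fold lower, of which 107 were also lower than each early library. Of the 30 at least 2-fold lower, 3 were lower in light. Transcripts are not independent replicates, and this is a description of these libraries.

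**Figure D4:**
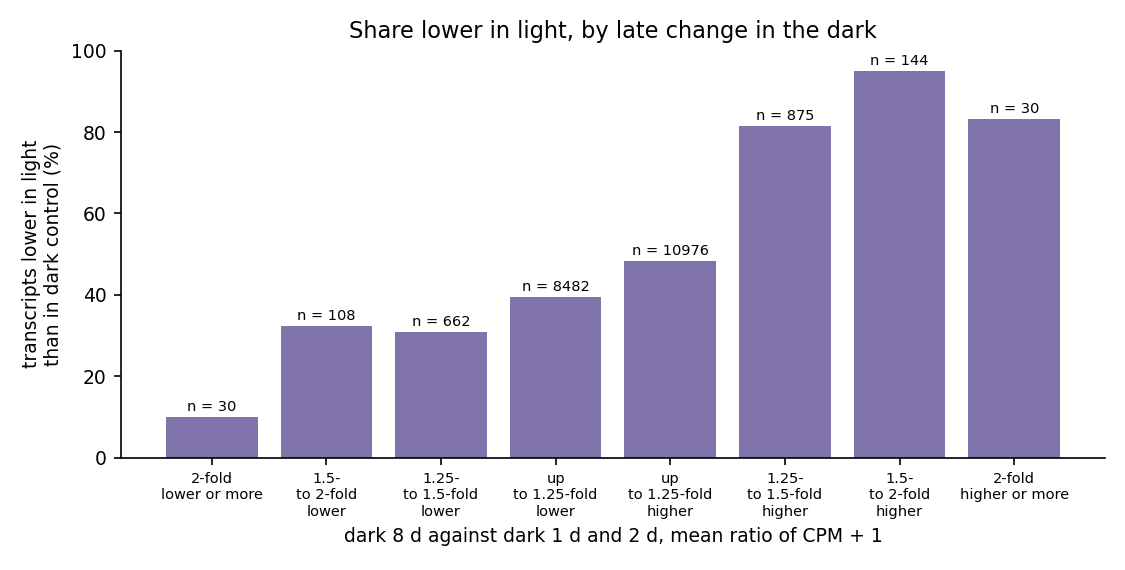
Share of transcripts with a lower level in the light library than in the dark control (y axis, percent), in bins of the mean ratio of CPM + 1 of the 8-day library to the early libraries (x axis); n is the number of transcripts. The share stands for 3 of 30 transcripts in the leftmost bin, and is 48.2% among transcripts up to 1.25-fold higher at 8 days and 95.1% in the bin of 1.5- to 2-fold higher.

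The 30 higher transcripts fell into sets by where the 8-day level lay relative to the dark control. In this step the 8-day library enters both the choice and the placement, so the counts are a description. Limits of 2-fold are on the CPM + 1 scale here, and percentages are of the CPM in the control. The largest set held 17 transcripts lower in light than in the control by at least 2-fold and within 2-fold of the control at 8 days. Their levels at 8 days were 81.0% to 160.3% of the control (median 110.4%), with 11 of the 17 above it, against 61.0% of all compared transcripts, a share close to theirs. After 1 day they stood at 21.7% to 49.7% (median 32.9%), after 2 days at 24.1% to 57.4% (median 34.6%), and in light at 22.1% to 43.2% (median 34.2%). The early levels lay close to the light level: for 12 of the 17 the light level was above both early levels (33.5% of all compared), and for 4 it was below both (38.6%). Summed over the 17, the level was 3051 CPM at 8 days, against 797 CPM after 1 day and 852 CPM after 2 days, and 876 CPM in light, against 2598 CPM in the control. The uniform course spans a wide range of abundance, with means over the 5 libraries from 2.59 to 433 CPM. SmedASXL_011484 and SmedASXL_013664 belong to this set.

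A second set held 7 transcripts with far larger losses in light. In light they stood at 0.0334% (1 read) to 8.78% of the control (median 1.31%). They are the 7 of the 30 higher transcripts that were at least 2-fold under the control at 8 days, which holds for 1.00% of all compared transcripts. Their levels at 8 days were 4.61% to 41.8% of the control (median 8.18%), against medians of 1.63% after 1 day and 2.48% after 2 days. Summed over the 7, the level was 51.0 CPM at 8 days, against 12.7 CPM after 1 day and 16.5 CPM after 2 days, and 6.66 CPM in light, against 578 CPM in the control. In 6 of the 7 the light level was below both early levels (38.6% of all compared). For 1 of these 6 that order rests on 1 read in light against 4 reads after 2 days, too few to set it. All 7 are among the top 75 transcripts of the authors' deposited table, whose order follows the ratio of control to light. That ratio comes from the same control and light libraries, so this restates the large losses in light. The study's design text speaks of 75 genes of interest with a high ratio. None of the other 23 higher transcripts and 0 of the 30 lower ones are among these 75.

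The remaining 6 higher transcripts took other courses. For 5 of the 30 the 8-day level was at least 2-fold above the control, against 0.390% of all compared transcripts. Of these 5, 3 were higher at every step, in the order dark control, light, 1 day, 2 days and 8 days. No share over all compared transcripts is given for this order, and the choice itself sets the step from 2 to 8 days. For 2 of those 3, light and control differed less than 2-fold on the CPM + 1 scale, though not in their summed CPM. Summed over these 2, the level was 27.0 CPM at 8 days, against 5.41 CPM after 1 day and 10.4 CPM after 2 days. It was 4.03 CPM in light, against 1.96 CPM in the control. The other of the 3 stood at 27.0 CPM at 8 days, against 6.11 CPM after 1 day and 14.2 CPM after 2 days, and 5.64 CPM in light, against 2.30 CPM in the control. The highest of the 5 at 8 days had 98.6 CPM then, against 43.2 and 54.3 CPM after 1 and 2 days, and 47.4 CPM in light, against 14.0 CPM in the control. The fifth peaked in light, at 43.9 CPM, which was 439% of the control, and stood at 21.2 CPM at 8 days, against 8.13 and 8.81 CPM after 1 and 2 days. The sixth transcript resembled the set of 17 but was 48.2% of the control in light, within 2-fold on the CPM + 1 scale, and 132% at 8 days.

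**Figure D5:**
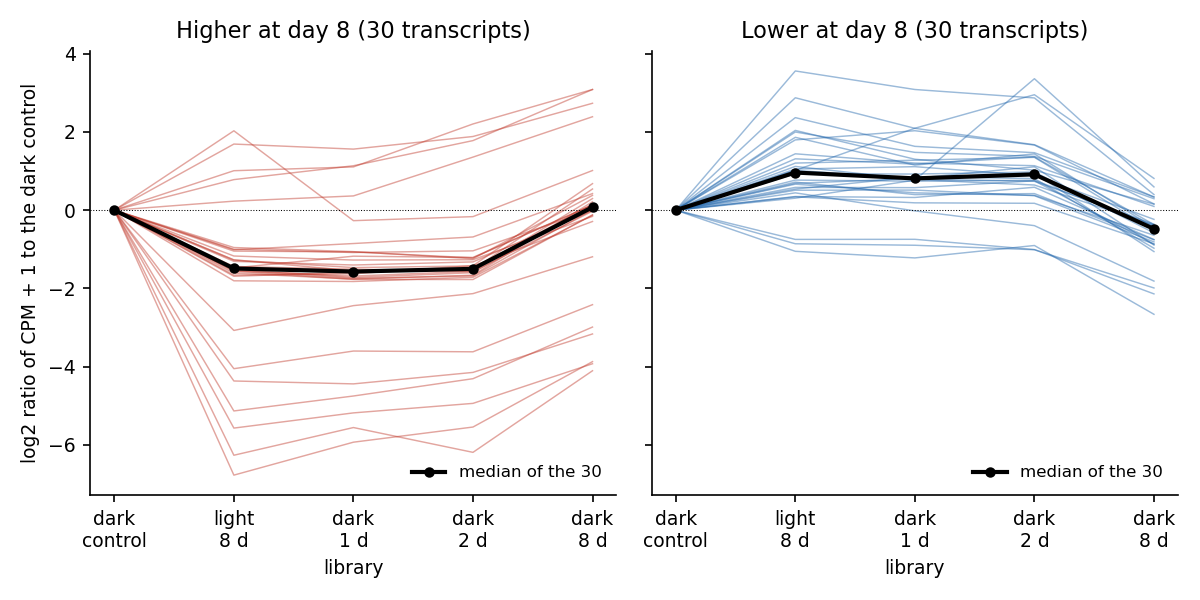
Log2 ratio of CPM + 1 to the dark control (y axis) in the 5 libraries (x axis) for the 30 transcripts higher at 8 days (left) and the 30 lower (right); each thin line is 1 transcript and the black line is the median. On the left most lines run flat from light to 2 days and return to about 0 at 8 days, 7 lines stay well below 0 and 5 end above it by 1.01 or more; on the right most lines sit above 0 until 2 days.

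The 30 lower transcripts fell into sets in the same manner. In 14 transcripts light was at least 2-fold above the control and the 8-day level within 2-fold of it. Their 8-day levels were 35.5% to 191% of the control (median 109%), with 8 of the 14 above it, close to the 61.0% of all compared transcripts. Medians were 289% of the control after 1 day, 294% after 2 days and 380% in light. Summed over the 14, the level was 529 CPM at 8 days, against 1385 CPM after 1 day and 1287 CPM after 2 days, and 1529.7 CPM in light, against 527 CPM in the control. The light level was above both early levels for 8 of the 14 (33.5% of all compared). SmedASXL_013874 belongs to this set.

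In 11 further transcripts the light level was 129% to 223% of the control, under 2-fold on the CPM + 1 scale, and the 8-day level was 29.6% to 238% of it. Their median at 8 days was 59.1% of the control, against 165% after 1 day and 171% after 2 days, and 10 of the 11 were below the control at 8 days (39.0% of all compared). The most abundant of all 60 transcripts is in this set. It stood at 1735 CPM at 8 days, against 3683 CPM after 1 day and 3519 CPM after 2 days, and 4293 CPM in light, against 2708 CPM in the control. The set also holds a transcript with a peak at 2 days, at 1.40 CPM at 8 days, against 1.70 CPM after 1 day and 15.3 CPM after 2 days. Its log2 ratio at 8 days was -2.77 to the 2-day and -0.17 to the 1-day library, so its place among the 30 rests on the 2-day library alone.

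The last 5 of the 30 lower transcripts were at least 2-fold under the control at 8 days (1.00% of all compared). Of these, 4, among them SmedASXL_006851, differed less than 2-fold between light and control, and their 8-day levels were 15.3% to 47.1% of the control. The other was lower in light as well, at 4.79 CPM, against 11.0 CPM in the control, and lower again at 8 days, at 0.896 CPM (43 reads), against 4.15 CPM after 1 day and 5.42 CPM after 2 days.

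Relative to the light library, 28 of the 30 higher transcripts were at least 2-fold higher at 8 days (0.418% of all compared) and 28 of the 30 lower ones at least 2-fold lower (0.268%). The single higher transcript that was at least 2-fold under the light library was the one that peaked in light. Between the early libraries, the level at 2 days was above that at 1 day in 23 of the 30 higher transcripts (47.4% of all compared) and for 13 of the 30 lower ones. The median log2 ratio of 2 days to 1 day was 0.10 for the higher and -0.05 for the lower transcripts. These comparisons share libraries with the choice.

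Changed transcripts made up the smallest share among those of low level. With means of 1 to 5 CPM there were 3 higher and 7 lower transcripts, 0.0356% and 0.0830% of the 8429 compared at that level. With 5 to 25 CPM there were 17 and 9 (0.258% and 0.137% of 6590), and with 25 CPM or more 10 and 14 (0.159% and 0.223% of 6288). The 1 CPM added before the log2 shrinks the ratios of low transcripts. The 60 held a small part of the RNA. Together the 30 higher transcripts took 0.329% of the reads at 8 days, against 0.0879% at 1 day and 0.0962% at 2 days, and 0.0991% in light, against 0.322% in the control. The 30 lower ones took 0.284% at 8 days, against 0.642% at 1 day and 0.618% at 2 days, and 0.735% in light, against 0.451% in the control.

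Some of the 60 may not be separate genes. On each side 1 pair of transcripts had consecutive numbers. On the higher side the level of the second was 0.344 times that of the first at 8 days, 0.398 and 0.387 times at 1 and 2 days, 0.413 times in light and 0.395 times in the control. On the lower side these ratios were 1.65 at 8 days, 2.01 and 1.66 at 1 and 2 days, 1.97 in light and 1.95 in the control. Animals at 8 days were also collected later after the start of the experiment than those at 1 and 2 days, so time in the dark and time since the start of the light cannot be told apart. The design text calls the animals returned to the dark starved and gives no length. Whether time without food differed between 8 days and the early times cannot be read from these texts.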

How the data were processed

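Poly(A)-selected RNA of whole animals (per the labels' protocols) was read in single-end runs of 50 bases, per the design text. Reads were trimmed by 15 bases at the 3' end and aligned to the SmedASXL transcriptome, per the design text, with bcl2fastq 1.8.3 and Bowtie2 2.2.4 named in the submitters' processing notes. For reads that match several contigs, and for strand, the handling was not given in the sources used here.

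The deposited table gives for each transcript and library a signal of CPM + 1, per the file headers. A deposited ratio of control to light, computed by the authors on that scale, was used only for the order of the table. After 1 was subtracted, columns summed to 1000000 and 100% of values were whole multiples of 1 read (tolerance 0.001 reads), which gave whole reads. With 1 library per condition no count model was fitted and no test was run. No per-sample column went unused.

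The mean of log2 ratios of CPM + 1 was computed with Python 3.11.15, numpy 2.4.6, pandas 2.3.3 and scipy 1.17.1 (figures: matplotlib 3.10.9), over transcripts averaging at least 1 CPM in the 5 libraries, and the calculation was tested on simulated data. Transcripts named are the 2 highest and 2 lowest by mean log2 ratio of CPM + 1, with a mean of at least 5 CPM. Other transcripts described singly were chosen after their values were seen. Gene and cell type lists could not be applied, since numbers carry no names. The comparison and lists were chosen with earlier results of these data known. Alternatives were other pseudocounts, filters, thresholds and scalings, a 2-fold difference from each early library, and each early library alone.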

Additional observations from a re-analysis of the deposited data

How the results depend on the processing

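The counts depend on the pseudocount and the threshold. With 0.1 CPM in place of 1 CPM 59 transcripts were higher at 8 days and 52 lower, and with 5 CPM 14 and 18. All 60 transcripts were among those counted with 0.1 CPM. A mean of at least 10 CPM gave 20 higher and 18 lower, a 1.5-fold threshold 174 and 137, and a 4-fold threshold 2 and 1. Without 1 of the early libraries the counts were 27 to 41 higher and 32 to 39 lower. No filter, a 2-fold difference from each early library, trimmed-mean-of-M-values (TMM) scaling, median-of-ratios scaling and the filter on dark-return libraries gave 26 to 31 higher and 27 to 30 lower.

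The light response kept its sign under all 12 alternatives. For the higher transcripts the median log2 ratio of light to control was -0.84 at 1.5-fold and -1.67 at 4-fold, and -1.48 to -1.27 without 1 early library. For the lower ones it was 0.56 at 1.5-fold and 3.56 at 4-fold (1 transcript), and 0.77 to 0.92 without 1 early library. Thresholds change which transcripts are counted. The named transcripts kept their direction, with mean log2 ratios of 2.10 to 2.30 for SmedASXL_011484, 2.01 to 2.13 for SmedASXL_013664, -2.68 to -2.25 for SmedASXL_013874 and -2.01 to -1.80 for SmedASXL_006851. Filters, thresholds and the 2-fold demand on each early library cannot change the ratio of a single transcript. These ranges therefore rest on the other pseudocounts, the scalings and each early library alone. No paired analysis was possible because each condition has 1 pooled library. Counting error left 1 transcript on each side with an interval that reaches under 2-fold, and the spread between animals was not measured.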

Other observations

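Some transcripts differed at least 2-fold between the 8-day library and 1 early library but not the other. On the higher side 15 did so against the 1-day library alone and 1 against the 2-day library alone, and on the lower side 12 and 5. Of these, 11 and 1 on the higher side and 10 and 4 on the lower side stayed under 2-fold in the mean of both ratios and are not among the 60. In 2 of the 5 lower transcripts that differed from the 2-day library alone, the 8-day level was not below that of the 1-day library, so that 2 days gave the highest level of the 3 times in the dark.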
